A study of Mus musculus with 3 samples.

Results

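The genes of helper T cell cytokines followed here in immune cells of mouse nerve were Il2, Il3, Il4, Il13, Il17a, Il17f, Il22, Csf2 and Gata3. They were taken by name as 9 of the 32285 gene rows of the matrices, and no measured value entered the choice. The cells were CD45+ immune cells sorted from digested sciatic nerves of neuropathic NOD.AireGW/+ mice, which carry a dominant partial loss-of-function allele of the tolerance gene Aire on the autoimmunity-prone NOD background. All 3 libraries belong to this 1 group, libraries 1 and 2 from 1 mouse each and library 3 from 2 pooled mice whose cells cannot be told apart. With no other genotype, treatment or time in the files used here, cell types were compared within libraries and no effect of disease was tested.

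Helper T cells are grouped by the cytokines they release. IL-4 and IL-13 are the type 2 cytokines, made under the transcription factor GATA3, while IL-17A, IL-17F and IL-22 are the type 17 cytokines. IL-2 is an autocrine and paracrine growth factor of recently stimulated T cells, and IL-3 and GM-CSF, the product of Csf2, act on myeloid cells. Gamma delta T cells and innate lymphoid cells can make type 2 and type 17 cytokines without conventional helper T cells.

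The values are counts of UMIs (unique molecular identifiers, each 1 captured transcript), and levels are given as CPM, the usual scaling of a gene's summed UMIs to the total of its class in that library. After filtering, 3848, 8256 and 1533 cells remained in libraries 1 to 3, with a median of 3956, 4632.5 and 1726 UMIs per cell, so library 3 was the shallowest. Cells with any Cd3d, Cd3e or Cd3g UMI were split by marker transcripts into 2079 conventional CD4 T cells (Cd4, no Cd8 and no Foxp3), 647 Foxp3 CD4 T cells, 2550 CD8 T cells, 409 gamma delta T cells (Trdc and a gamma or delta V gene, no Cd4 and no Cd8b1) and 4218 other CD3 cells outside these gates. NK cells, without CD3 transcripts but with Ncr1 or Klre1, numbered 178, B cells 636, myeloid cells 2542, innate lymphoid cells 10 and mast cells or basophils 3. Fewer cells that make a transcript and less transcript per cell cannot be told apart in the sums of a class. The gates were not pure. Trac, the alpha chain constant gene of conventional T cells, was seen in 22.5% to 34.0% of the gamma delta cells of the libraries. Ncr1, a gene of the NK gate, was seen in 25.8%, 12.3% and 32.1% of the gamma delta cells of libraries 1 to 3. In CD8 T cells it was seen in 2.0%, 1.1% and 0.38%. Lyz2, a myeloid gene, was seen in 42.6% of the conventional CD4 T cells of library 2, against 7.35% and 1.06% in libraries 1 and 3. B and myeloid cells served as a limited measure of free RNA. Both gates required no CD3 UMI, so B or myeloid cells with free CD3 RNA fell among the other CD3 cells. Counts in these 2 classes can therefore understate free T cell RNA. Ptprc, which encodes CD45, had a UMI in 91.3%, 69.3% and 49.6% of all cells. Pairs of libraries shared 35, 7 and 14 cell barcodes.

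The 9 genes lie on 5 chromosomes, and 3 pairs of them are neighbours (mouse build GRCm38.p6). Il17a, at chr1:20730905-20734496 on the plus strand, and Il17f, at chr1:20777146-20785274 on the minus strand, lie 42.65 kb apart. On chromosome 11, Il4 and Il13 are separated by 12.66 kb and Csf2 and Il3 by 15.19 kb, with 612.6 kb between Il13 and Csf2, all 4 on the minus strand. Promoters were found for 9 of 9 genes in RefSeq's GRCm38.p6 table. Those of the 2 neighbour pairs with a cytokine in at least 20 cells each, and of Il2, are shown because the values of these genes follow below. Each runs 5′ to 3′ from 250 bases before to 50 bases after the transcription start, with capitals marking 4 motifs searched on both strands. They are the core GGAAA bound by NFAT factors and the AP-1 site TGANTCA. The other two are AGATAA for GATA3 and its relatives and the promoter box with the letters TATAAA.
Il17a, chr1:20730655-20730954, plus strand: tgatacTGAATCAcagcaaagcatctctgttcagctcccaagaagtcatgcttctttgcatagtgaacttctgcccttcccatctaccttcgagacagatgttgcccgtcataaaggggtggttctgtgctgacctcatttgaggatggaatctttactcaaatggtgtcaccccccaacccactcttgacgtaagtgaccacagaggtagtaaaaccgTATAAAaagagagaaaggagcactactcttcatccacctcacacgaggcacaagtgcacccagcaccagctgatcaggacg
Il17f, chr1:20784221-20784520, minus strand: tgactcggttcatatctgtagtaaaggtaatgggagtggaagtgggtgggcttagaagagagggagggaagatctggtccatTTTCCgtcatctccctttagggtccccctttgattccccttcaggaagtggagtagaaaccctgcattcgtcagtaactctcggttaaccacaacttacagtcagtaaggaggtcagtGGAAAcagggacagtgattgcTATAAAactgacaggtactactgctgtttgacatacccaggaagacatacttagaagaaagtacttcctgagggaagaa
Il4, chr11:53618616-53618915, minus strand: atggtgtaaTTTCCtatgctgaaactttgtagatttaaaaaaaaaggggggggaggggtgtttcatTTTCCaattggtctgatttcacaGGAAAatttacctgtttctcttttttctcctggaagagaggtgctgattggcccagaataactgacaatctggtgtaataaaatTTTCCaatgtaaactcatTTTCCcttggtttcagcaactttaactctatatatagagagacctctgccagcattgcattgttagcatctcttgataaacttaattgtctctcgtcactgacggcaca
Il13, chr11:53634653-53634952, minus strand: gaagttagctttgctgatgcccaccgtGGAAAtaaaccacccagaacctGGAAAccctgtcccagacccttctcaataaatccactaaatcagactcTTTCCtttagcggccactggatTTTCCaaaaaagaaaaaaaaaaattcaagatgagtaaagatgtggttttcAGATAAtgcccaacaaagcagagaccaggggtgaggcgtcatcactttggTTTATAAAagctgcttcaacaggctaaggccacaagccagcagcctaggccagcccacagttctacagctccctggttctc
Il2, chr3:37125905-37126204, minus strand: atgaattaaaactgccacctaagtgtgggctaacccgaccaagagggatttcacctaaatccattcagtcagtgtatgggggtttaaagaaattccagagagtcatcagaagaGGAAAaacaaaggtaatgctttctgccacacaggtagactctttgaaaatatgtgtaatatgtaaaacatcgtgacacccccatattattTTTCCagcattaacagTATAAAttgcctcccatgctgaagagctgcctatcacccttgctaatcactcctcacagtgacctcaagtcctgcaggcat

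Il13 held AGATAA at position -81 from the start, which is in 11.2% of 32851 promoters of this length, while the window of Il4 shown held none. In Il13 the run TTTATAAA in capitals is TATAAA read on both strands, which overlap. GGAAA was found 5 times in Il4, 4 times in Il13 and 2 times in both Il17f and Il2, but it occurs in 61.3% of promoters. TGANTCA, in 7.81% of promoters, was found in Il17a at -244. TATAAA, in 13.6%, was found in 4 of the 5 shown. These are matches of letters and show no binding.

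Across all 13637 cells the genes ranged from broadly detected to absent. Gata3 was found in 1444 cells, Il2 in 260, Il17a in 144, Il13 in 50, Csf2 in 43, and Il4 and Il17f in 24 each. Il22, a cytokine that acts on epithelium, had 5 UMIs in 3 cells (1 Foxp3 CD4 and 2 other CD3 cells). Il22 has a near-identical copy in the mouse genome, Iltifb, which had 0 UMIs, so the assignment of these reads is uncertain. Il3 had 0 UMIs in 13637 cells, and in the 2079 conventional CD4 T cells this allows a share of cells with a UMI of up to 0.144% (3 cells). Intervals and limits here cover counting error only. For 7 of the 9 genes there were enough UMIs for a test across classes, and Il3 and Il22 were not tested.

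**Figure D1:**
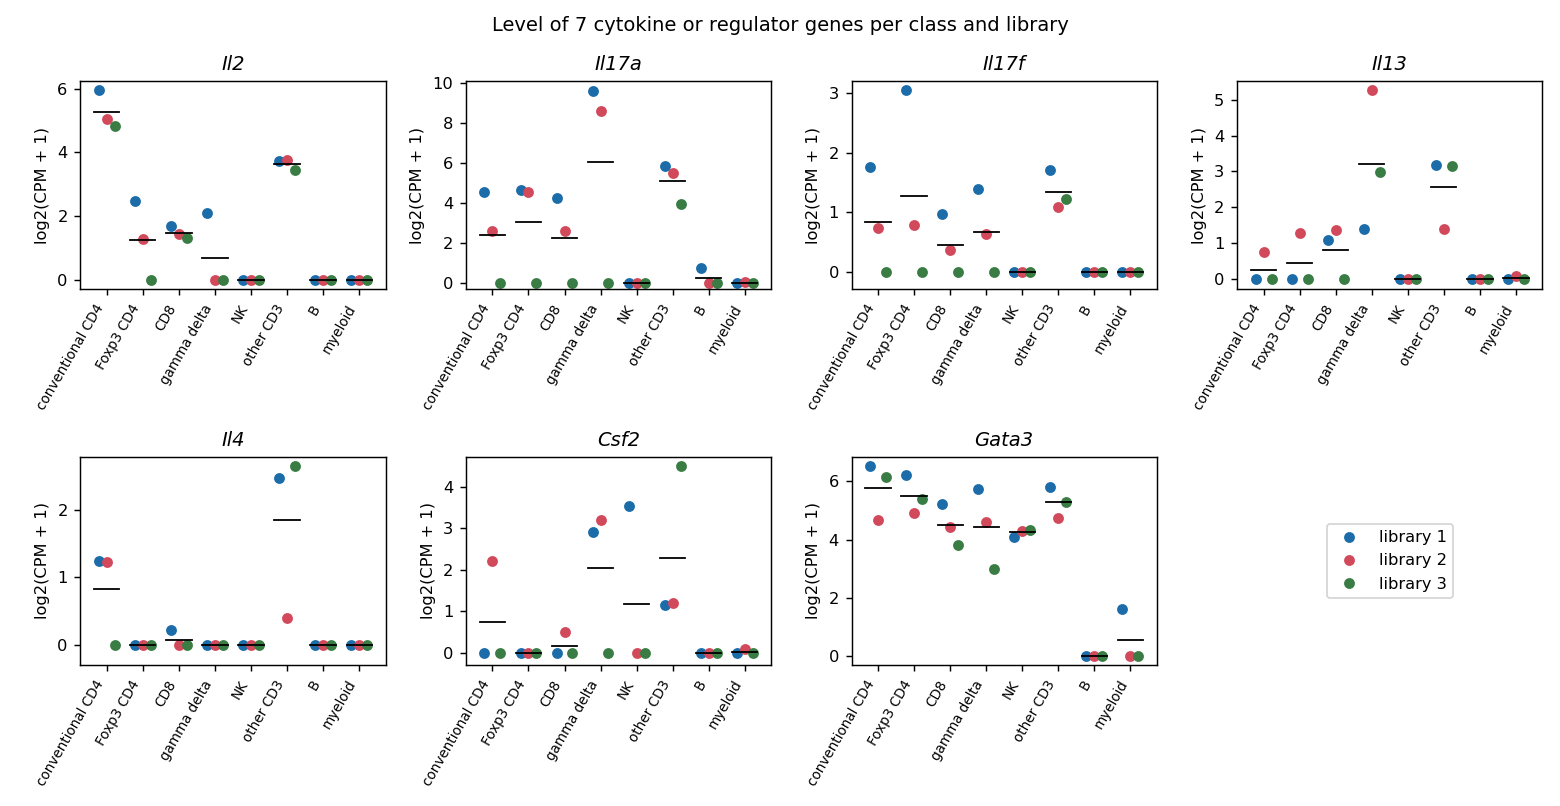
Level of 7 of the genes on the log2(CPM + 1) scale (vertical axis; CPM as above) in 8 cell classes (horizontal axis), with 1 point per library and a bar at the mean of the 3 log values. Il2 is highest in conventional CD4 T cells in each library, Il17a and Il13 reach their highest points in gamma delta T cells, and Gata3 spreads over all T and NK classes. B and myeloid cells sit at or near 0, apart from Il17a in B cells and Gata3 in myeloid cells of library 1, which rest on 1 and 2 cells.

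IL-2, which T cells make soon after antigen receptor and CD28 signals, was highest in conventional CD4 T cells. Il2 stood at 60.5, 32.2 and 27.7 CPM in conventional CD4 T cells of libraries 1 to 3. It stood at 2.21, 1.70 and 1.46 CPM in CD8 T cells and at 4.50, 1.44 and 0 CPM in Foxp3 CD4 T cells. The 3 conventional CD4 values lay above all values of the other 2 classes, with no overlap. In the fit of all 5 classes (edgeR quasi-likelihood test on UMI sums, library as a block, Benjamini-Hochberg adjustment over 13929 genes), Il2 was higher in conventional CD4 than CD8 T cells by 4.40 ± 0.31 on the log2 scale (SE, 3 libraries, adjusted p = 6.08e-09). It was lower in Foxp3 CD4 than conventional CD4 T cells, with a log2 difference of -4.11 ± 0.37 (adjusted p = 7.91e-07). In the comparison of conventional CD4 with CD8 T cells 6.99% of all genes tested passed in either direction, and 2 of the 7 tested genes did. In that of Foxp3 with conventional CD4 T cells the share was 1.51%, and 1 of 7 did. Both Il2 differences kept their direction and passed under all 12 alternatives.

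Il2 transcripts were few per cell and concentrated in a small number of cells. UMIs were found in 44 of 694, 68 of 1196 and 6 of 189 conventional CD4 T cells, or 6.34% (exact 95% interval 4.64 to 8.42), 5.69% (4.44 to 7.15) and 3.17% (1.17 to 6.78). Thinned to 1000 UMIs per cell, with 108, 26 and 28 shallower cells left out, the shares were 3.26%, 2.02% and 1.71%, against 0.210%, 0.194% and 0.342% in CD8 T cells, of which 120, 15 and 19 were left out. No B or myeloid cell of 636 and 2542 carried Il2, at a median depth of 3105 to 3985 UMIs for B cells and 7197 to 8613 for myeloid cells in libraries 1 and 2. One cell of library 1 held 69 Il2 UMIs and 1 of library 2 held 78. Over all classes 10 cells with 10 or more UMIs held 41.8% of the 723 Il2 UMIs. With each cell counted as at most 1 UMI for the cytokines, an alternative added after these values were seen, the log2 difference from CD8 T cells was 2.93 (adjusted p = 6.97e-05). The other CD3 cells, in which Cd4 and Cd8 transcripts may have been missed, held 111 Il2-carrying cells, 70 of them with no Cd4, Cd8, Trdc or gamma delta V UMI.

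Innate-like classes had almost no Il2. Gamma delta T cells had 2 UMIs in 1 of 409 cells, and the fitted difference from the mean of conventional CD4 and CD8 T cells was -3.32 ± 0.69 (log2, edgeR, adjusted p = 0.00401). Gamma delta values were 3.25, 0 and 0 CPM, below conventional CD4 T cells in each library but above CD8 T cells in library 1. Without library 2 the difference was -1.98 on the log2 scale and did not pass (adjusted p = 0.307). NK cells had 0 Il2 UMIs in 178 cells, which allows a share of up to 1.69%. Against a floor of 3 counts over the NK cells of all libraries, pooled Il2 was at least 12-fold higher in conventional CD4 T cells. That NK difference passed with 3 libraries (edgeR, adjusted p = 0.0155), as the 1 called of 7 tested genes in a comparison where 6.27% of all genes were called, but it did not pass when any 1 of the 3 libraries was left out (adjusted p from 0.0644 to 0.151).

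Some but not all genes tied to T cell stimulation stood with Il2 in the same contrast. The list of 12 genes of activation and IL-2 induction had 7 higher and 0 lower in conventional CD4 than CD8 T cells. Its median log2 difference was 0.73 against -0.02 for all genes. The 7 were Cd40lg, Lta, Nfatc1, Nfkbid, Rel, Tnf and Tnfrsf4, while Nr4a1, Nr4a3, Egr2, Cd69 and Bhlhe40 were not called. Of all genes tested 6.99% were called there. Cd40lg, the CD40 ligand that helps B cells, was 215, 104 and 216 CPM in conventional CD4 and 6.80, 7.49 and 2.93 CPM in CD8 T cells (log2 difference 4.46 ± 0.27, edgeR adjusted p = 9.88e-10). Tnfrsf4, the costimulatory receptor OX40, differed by 2.40 and Lta, lymphotoxin alpha, by 2.13 on the same scale (both adjusted p = 8.91e-07). In Foxp3 CD4 T cells 5 of the 12 were lower than in conventional CD4 T cells and 0 higher, where 1.51% of all genes were called. Cd40lg had a log2 difference of -2.57 there (edgeR adjusted p = 4.69e-06). Tnfrsf4 was not among the 5, at 0.58 ± 0.24 (adjusted p = 0.372).

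Receptor genes of IL-2 were higher in other classes than Il2 itself. Il2ra, the alpha chain that raises affinity for IL-2, stood at 207, 180 and 338 CPM in Foxp3 CD4 and at 64.6, 38.0 and 40.3 CPM in conventional CD4 T cells, with no overlap. The log2 difference was 2.00 ± 0.22 (edgeR, adjusted p = 7.17e-06). Il2rb, the signalling beta chain, was higher in gamma delta (1.28 ± 0.14, adjusted p = 1.96e-06) and NK cells (1.41 ± 0.15, adjusted p = 8.30e-07) than the mean of conventional CD4 and CD8 T cells, which both comparisons share as their reference. In each of these 3 comparisons that gene was the 1 called of 11 tested receptor genes of the cytokines. The shares of all genes called were 1.51% for Foxp3 CD4 T cells and 6.27% for both gamma delta and NK cells. Csf2rb, the signalling chain of the GM-CSF receptor, stood at 303, 118 and 147 CPM in myeloid cells and at most at 64.4 CPM in the 5 tested classes. Il17rc, a chain of the IL-17A and IL-17F receptor, was at most 1.62 CPM in any of the 8 classes, while Il17ra was at 17.7 to 60.9 CPM in all of them.

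Within conventional CD4 T cells, Il2 was set against Il21 and Cxcr6, the transcripts of a helper cytokine for B cells and of a receptor of tissue-resident cells. Il21-positive cells of libraries 1 and 2, 95 and 173 cells, held Il2 at 202 and 123 CPM, and Il21-negative cells at 27.6 and 14.3 CPM. The edgeR difference was 2.99 ± 0.17 (adjusted p = 2.67e-07), in a comparison where 0.982% of genes passed and library 3 had too few positive cells. It rested on few cells: Il2 was in 8 of 95 and 13 of 173 Il21-positive cells and in 36 of 599 and 55 of 1023 Il21-negative cells, and at 1 UMI per cell the difference was 0.12 (adjusted p = 0.989). Of 259 CD3 or NK cells with Il2, 39 also had Il21 (15.1%, against 5.03% of all CD3 or NK cells), 64 had Ifng (24.7% against 22.2%) and 56 had Tnf (21.6% against 14.4%). The background of all CD3 or NK cells mixes classes that differ in these genes. The counts above are those within conventional CD4 T cells. Genes were also ranked by likeness across the 15 sums of class and library, with gate markers and gamma delta V genes left out. Among the rest of the genes tested, Il21 was the second most similar to Il2 (Pearson r = 0.953 of log2(CPM + 1)), and B630019A10Rik the first (r = 0.956). The sums share libraries and depth, and these are descriptions.

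Cxcr6-positive conventional CD4 T cells held less Il2. The values were 32.2, 16.5 and 0 CPM in Cxcr6-positive and 81.2, 38.2 and 31.3 CPM in Cxcr6-negative cells, lower in 3 of 3 libraries (log2 difference -1.30 ± 0.21, edgeR, adjusted p = 4.22e-08, 2.61% of genes called). At 1 UMI per cell the difference was -0.53 (adjusted p = 0.776), and it did not pass without library 2 (adjusted p = 0.0939). A split of conventional CD4 T cells by Il2 itself, chosen after values had been seen, used 44 and 68 positive cells of libraries 1 and 2, where 1.83% of genes were called. The positive cells were deeper, at a median of 3861.5 and 5853.5 UMIs against 3098.5 and 3420.5 in Il2-negative cells. Of the 12 activation genes, Nfkbid (1.14 ± 0.20), Cd40lg (0.95 ± 0.19) and Tnf (0.85 ± 0.23) were higher in the Il2-positive cells and 0 were lower. DESeq2 called 0 of the 12. Il10, which encodes an inhibitory cytokine, was 9.50 and 11.2 CPM in Il2-positive against 176 and 73.4 CPM in Il2-negative cells (log2 difference -3.28 ± 0.38, adjusted p = 2.07e-15). Maf, a factor that drives Il10, was lower by 1.07 ± 0.20 on that scale (edgeR, adjusted p = 1.66e-05), but DESeq2 did not call it. Il17a was also called there, 1 of 5 tested of the 9 genes (1.88 ± 0.46, adjusted p = 0.00439), but at 1 UMI per cell it was not (adjusted p = 0.997). The fits on 2 libraries have 1 residual degree of freedom among the sums, so their p-values rest on the spread pooled over genes.

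**Figure D2:**
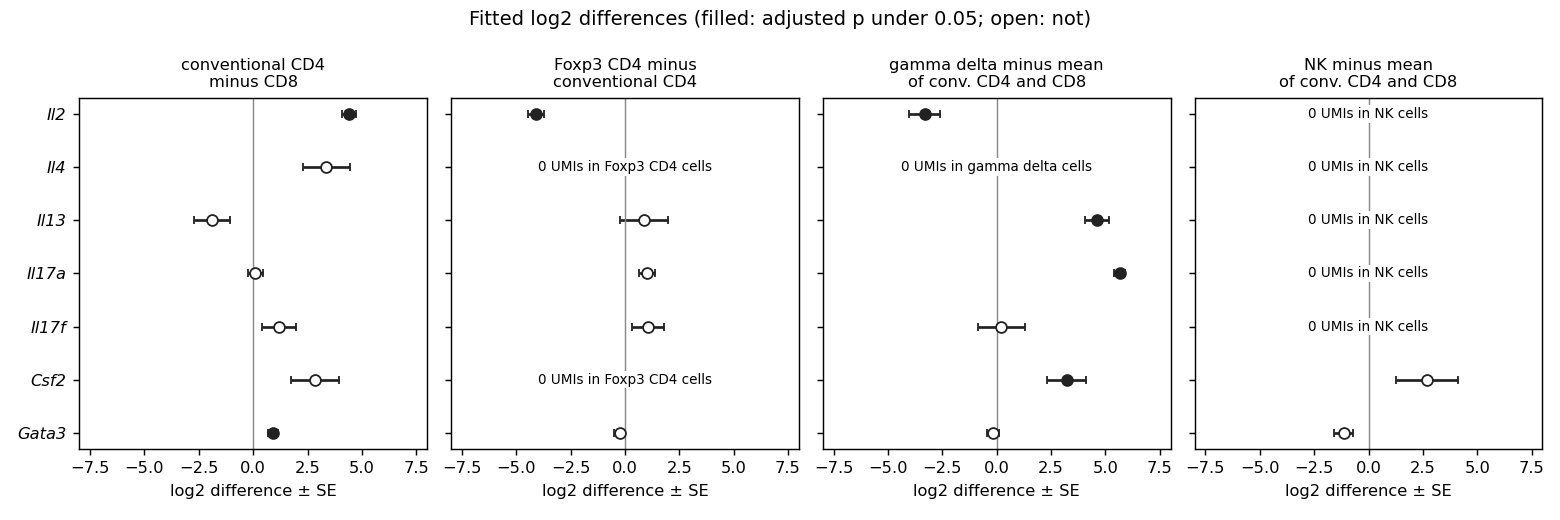
Fitted log2 difference with its standard error (horizontal axis) of 7 of the genes in the 4 comparisons between classes, with filled points for an adjusted p under 0.05. Il2 is positive for conventional CD4 T cells and negative for Foxp3 CD4 and gamma delta T cells, and Il17a, Il13 and Csf2 are positive for gamma delta T cells. A gene with 0 UMIs in a class carries that note in place of a point.

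IL-17A, a cytokine that recruits neutrophils, was at its highest level in gamma delta T cells in libraries 1 and 2. Of the 144 cells that carried Il17a, 51 were in the gamma delta class, 61 were other CD3 cells and 14 conventional CD4 T cells. Il17a stood at 797 and 388 CPM in gamma delta T cells of libraries 1 and 2 and at 0 CPM in the 28 gamma delta cells of library 3. It stood at 23.1, 5.23 and 0 CPM in conventional CD4, 24.2, 22.6 and 0 CPM in Foxp3 CD4 and 18.2, 5.09 and 0 CPM in CD8 T cells. Gamma delta values were thus far above the other classes in 2 libraries, while in library 3 all 5 classes were at 0. The log2 difference from the mean of conventional CD4 and CD8 T cells was 5.66 ± 0.26 (edgeR, adjusted p = 3.03e-10), and it passed under all 12 alternatives. In this comparison 6.27% of all genes were called, and 4 of the 7 tested genes were, Il17a, Il13 and Csf2 upwards and Il2 downwards. Il17a did not pass between conventional CD4 and CD8 T cells (0.09 ± 0.35, adjusted p = 0.950) or between Foxp3 and conventional CD4 T cells (1.01 ± 0.36, adjusted p = 0.258). The Foxp3 difference passed without library 1 (1.98, adjusted p = 0.000361) and with no filter on low counts (adjusted p = 0.0150), and was at or near 0 without library 2 (0.01, adjusted p = 1.0).

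A small number of cells held most Il17a transcripts. Of 97 gamma delta cells in library 1, 20 had an Il17a UMI (20.6%, exact interval 13.1 to 30.0), and in library 2 it was 31 of 284 (10.9%, 7.54 to 15.1). After thinning to 1000 UMIs the shares were 16.3% and 8.56%. In library 3, 0 of 28 cells allow a share of up to 10.7%. One B cell of 636 and 1 myeloid cell of 2542 carried 1 UMI each. Over all classes 67 cells with 10 or more UMIs held 89.5% of the 2537 Il17a UMIs, with up to 200 in 1 cell. The other CD3 cells held 61 further Il17a-carrying cells, and 43 of these had no Cd4 or Cd8 UMI but did have a Trdc or gamma delta V UMI. NK cells had 0 UMIs in 178 cells.

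**Figure D3:**
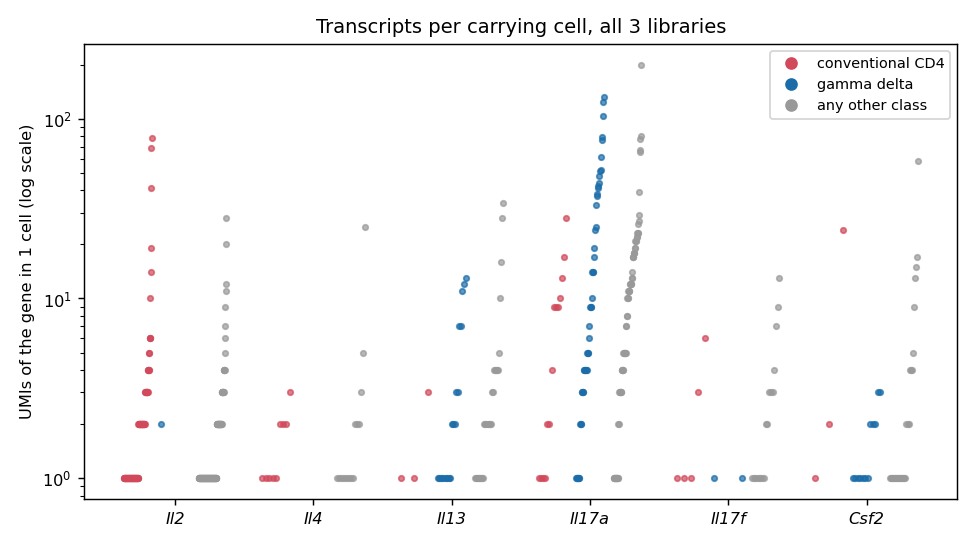
UMIs of 6 cytokine genes in each carrying cell of the 3 libraries together (vertical axis, log scale), with cells of conventional CD4, gamma delta and all other classes set side by side for each gene (horizontal axis). Il17a-carrying cells reach 132 UMIs in gamma delta T cells and 200 in the other classes, while most Il2-carrying cells sit at 1 or 2 UMIs and a few rise to 78.

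The Il17a-carrying gamma delta cells shared V gene transcripts. Trdv4 was seen in 18 of 20 and 30 of 31 Il17a-positive gamma delta cells of libraries 1 and 2, and in 16 of 77 and 54 of 253 Il17a-negative ones. Trgv6, named Tcrg-V6 in the files, was seen in 18 of 20 and 28 of 31 positive and in 3 of 77 and 39 of 253 negative cells. Trgv6 encodes the gamma chain of a subset that settles in tissues before birth and is known for IL-17A. The V genes were part of the gate for gamma delta cells, in which any 1 of 12 sufficed, and cells are not replicates, so these counts carry no test.

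Counted by V genes alone, without the gate, Il17a went with Trgv6 and Trdv4 in libraries 1 and 2. Among all CD3 cells with both Trgv6 and Trdv4 UMIs, Il17a was present in 27 of 33 in library 1 (81.8%, exact interval 64.5 to 93.0) and in 60 of 142 in library 2 (42.3%, 34.0 to 50.8). Library 3 had 2 such cells, both without Il17a. This count is not separate from the one by gate. In libraries 1 and 2, 18 of these 27 and 28 of these 60 Il17a-carrying cells were gamma delta cells counted above. Of CD3 cells with neither V gene, 19 of 3292, 19 of 5059 and 4 of 1264 carried Il17a. Cells with both V genes made up 0.982%, 2.70% and 0.157% of the CD3 cells of libraries 1 to 3, so library 3 had both the fewest such cells and the fewest Il17a-carrying cells. Il23r, the receptor for IL-23, was seen in 50 of the 177 cells with both V genes over the libraries. Ifng was seen in 6 of the 177.

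**Figure D4:**
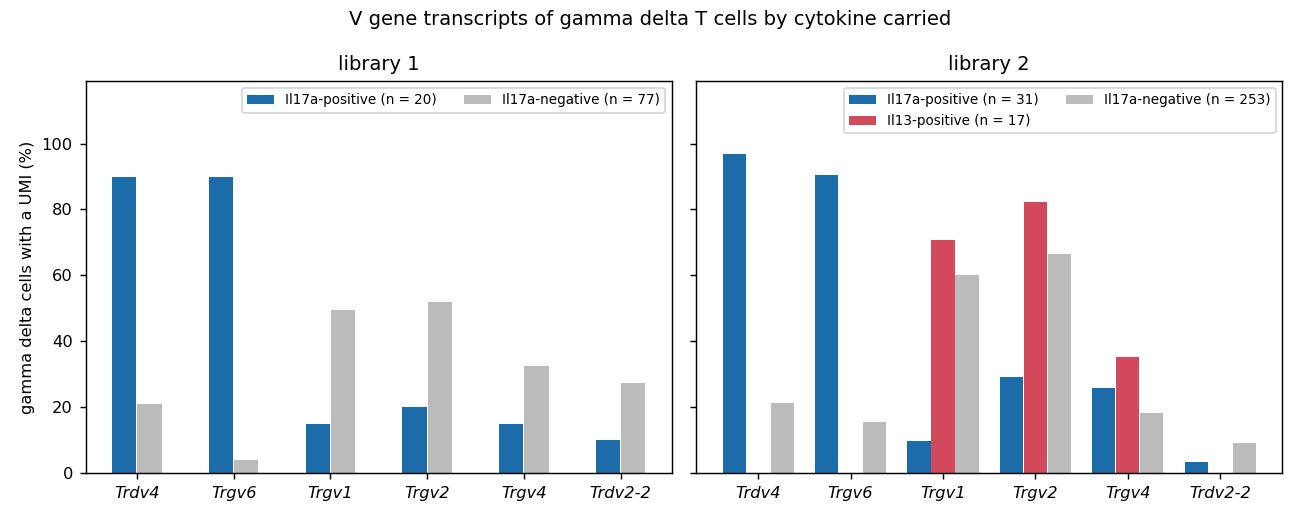
Share of gamma delta T cells with a UMI of 6 V genes (vertical axis, percent) in libraries 1 and 2, for Il17a-positive, Il17a-negative and, in library 2, Il13-positive cells. Trdv4 and Trgv6 are in at least 90% of the Il17a-positive cells of both libraries and in none of the 17 Il13-positive cells of library 2.

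The type 17 programme stood with Il17a in gamma delta T cells. Of its 13 genes reported here, all tested, 6 were higher and 1 lower than in the mean of conventional CD4 and CD8 T cells, with a median log2 difference of 1.05 against -0.09 for all genes. Of all genes tested 6.27% were called there. Il23r stood at 45.5, 7.08 and 0 CPM in gamma delta cells and at no more than 0.680 CPM in conventional CD4 or CD8 T cells (log2 difference 5.19 ± 0.58, edgeR, adjusted p = 1.06e-05). Cd163l1, a scavenger receptor of gamma delta cells, differed by 6.33 ± 0.33 (adjusted p = 1.97e-10) and Il1r1, the IL-1 receptor, by 3.51 ± 0.52 (adjusted p = 0.000117). Batf, an AP-1 factor of type 17 cells, was the gene that was lower. With gate markers and gamma delta V genes again left out, the genes most like Il17a across the 15 sums were Coro2b (r = 0.961), Gm10399 (0.958), Gm43848 (0.953), Gm10392 (0.939) and Gm4425 (0.934), each with at most 44 UMIs.

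Gamma delta cells with and without Il17a, compared in libraries 1 and 2 by a split added after values had been seen, separated along the same genes. There 3.89% of all genes were called, and 8 of 12 tested genes of the type 17 programme were higher in Il17a-positive cells and 0 lower. Blk, a Src family kinase, differed by 4.41 ± 0.36 (log2, edgeR, adjusted p = 3.58e-31) and Il23r by 4.11 ± 0.58 (adjusted p = 1.76e-10). Maf, which type 17 gamma delta cells need, was higher by 2.32 ± 0.38 (adjusted p = 1.39e-07). Tbx21, the type 1 regulator, was lower, at 22.9 and 6.79 CPM against 187 and 147 CPM (-3.80 ± 0.62, adjusted p = 8.07e-08), and so were Eomes (-4.33 ± 0.93, adjusted p = 0.000180) and Ifng (-3.03 ± 0.72, adjusted p = 0.00121). Areg, a growth factor of tissue repair, was 138 and 625 CPM in positive against 35.9 and 32.6 CPM in negative cells and was the 1 called gene of 6 tested from the type 2 programme. Of the 9 genes themselves 0 of 3 tested were called there by edgeR and 0 by DESeq2, with 2 at an unadjusted p under 0.05. Il2ra was higher (2.73 ± 0.44, adjusted p = 6.73e-08) and Il2rb lower (-1.69 ± 0.31, adjusted p = 4.31e-06) in the Il17a-positive cells. DESeq2 called fewer genes, 5 of the type 17 programme against 8 by edgeR. From the 6 helper fate factors, a list with Maf, Tbx21 and Eomes, it called 1 against 3 by edgeR. The part of Ncr1-carrying cells of the gate in the lower Tbx21, Eomes and Ifng was not tested. Tmem176b, also a gene of macrophages, was 2499 and 1372 CPM against 108 and 223 CPM, and the part of free RNA in it was not tested.

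**Figure D5:**
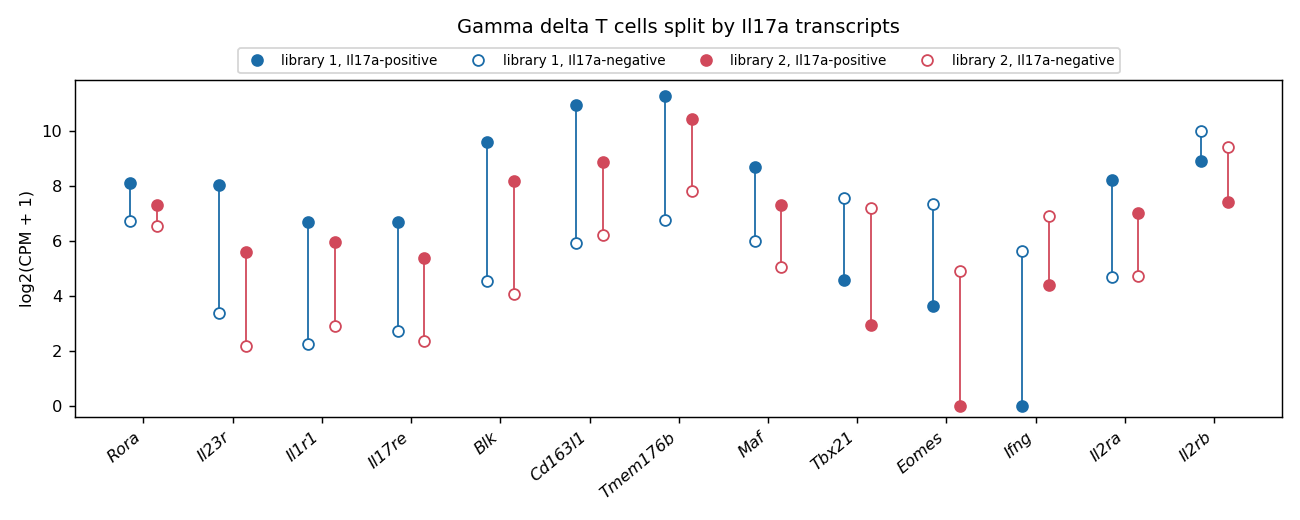
Levels of 13 genes on the log2(CPM + 1) scale (vertical axis) in Il17a-positive (filled) and Il17a-negative (open) gamma delta T cells of libraries 1 and 2. Rora, Il23r, Il1r1, Il17re, Blk, Cd163l1, Tmem176b, Maf and Il2ra lie higher in the positive cells of both libraries, and Tbx21, Eomes, Ifng and Il2rb lie lower, with Rora at an adjusted p of 0.185.

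Conventional CD4 T cells with Il17a were few but nearly all Cxcr6-positive. Of 14 such cells, 8 in library 1 and 6 in library 2, Cxcr6 was present in 7 and 6. Il17a stood at 54.0, 18.9 and 0 CPM in Cxcr6-positive and at 0.588, 0 and 0 CPM in Cxcr6-negative cells (log2 difference 6.99 ± 0.59, edgeR, adjusted p = 3.31e-29). At 1 UMI per cell it was 4.04 (adjusted p = 0.0150), while DESeq2 gave 6.41 and did not call it. Of these 14 cells, 4 had Trgv6 and 3 had Trdv4 UMIs, against 8 and 10 of the 2065 conventional CD4 T cells without Il17a. Cd163l1 was also higher in the Cxcr6-positive cells (3.88 ± 0.81, adjusted p = 0.000152), as were Trdv4 (3.29 ± 0.44, adjusted p = 2.72e-11) and Trgv6 (2.99 ± 0.65, adjusted p = 0.000374), genes of gamma delta cells that move with this result. The part of misplaced gamma delta cells in the difference was not tested.

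Il17f, the neighbour of Il17a with a related product, was not called in gamma delta T cells. It stood at 1.62, 0.545 and 0 CPM in gamma delta, 2.38, 0.671 and 0 CPM in conventional CD4 and 7.32, 0.718 and 0 CPM in Foxp3 CD4 T cells, and these ranges overlap. No comparison called it, and the gamma delta difference was 0.21 ± 1.09 (log2, edgeR, adjusted p = 0.967). Yet 16 of the 24 cells with Il17f also had Il17a, which is 66.7% of Il17f-positive and 11.3% of the 141 Il17a-positive CD3 or NK cells. Only 3 of the 24 had both Trgv6 and Trdv4 UMIs, against 87 of the 141 with Il17a. Library 1 had both cytokines in 9 of 9 Il17f-positive cells, library 2 in 6 of 13 and library 3 in 1 of 2.

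IL-13, the type 2 cytokine of barrier inflammation, had its highest transcript level of the 5 tested classes in gamma delta T cells, mainly by cells of library 2. Il13 stood at 1.62, 37.6 and 6.96 CPM in gamma delta T cells, at 0, 0.671 and 0 CPM in conventional CD4 and at 1.11, 1.55 and 0 CPM in CD8 T cells. Gamma delta cells had the highest of these values in each library. In libraries 1 and 3 this was 1 UMI in 1 cell, while library 2 had 69 UMIs in 17 of 284 cells. The other CD3 cells, outside the tested classes, stood at 8.04, 1.61 and 7.91 CPM, above gamma delta cells in libraries 1 and 3. Between gamma delta cells and the mean of conventional CD4 and CD8 T cells the log2 difference was 4.61 ± 0.55 (edgeR, adjusted p = 7.31e-06). It passed under all 10 alternatives that tested it. Without library 2 the gene had too few UMIs to be tested, so the call rests on that library. Thinned to 1000 UMIs, the shares of cells were 0.293%, 1.73% and 0.818%. In B cells Il13 had 0 UMIs in 636 cells, and in myeloid cells 1 in 2542.

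None of the 19 Il13-carrying gamma delta cells had a Trdv4 or Trgv6 UMI. Trgv1 was seen in 14 and Trgv2 in 16 of the 19, against 195 and 220 of the 390 gamma delta cells without Il13, and reads of these 2 near-identical genes may be split between them. These counts were not matched for depth. The Il13-carrying gamma delta cells of library 2 had a median of 9261 UMIs, against 4516 for their class. Over all 10081 CD3 or NK cells, 141 had Il17a and 45 had Il13, and 0 had both, a count too small to read against the 0.446% of all these cells that had Il13. The CD8 gate held 8 further Il13-carrying cells, of which all 8 had a gamma or delta V gene UMI but only 2 had Trdc. Such V gene UMIs are not particular to gamma delta cells. They were also in 1 of 8, 5 of 11 and 0 of 1 Il2-carrying CD8 T cells of libraries 1 to 3. The other CD3 cells held 14, with 34 UMIs in the richest cell. The genes most like Il13 across the 15 sums were Rasgrf1 (r = 0.851), Fbxo2 (0.828), Mien1 (0.825), Fam83a (0.815) and Ighv1-67 (0.813), a loose likeness that includes an immunoglobulin gene.

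IL-4, which drives helper cells to the type 2 fate, was rare. Il4 stood at 1.36, 1.34 and 0 CPM in conventional CD4 T cells, from 2, 7 and 0 cells, and at 0.158, 0 and 0 CPM in CD8 T cells. The difference of 3.37 ± 1.08 (log2, edgeR, adjusted p = 0.0802) did not pass. It passed without library 1 (4.46, adjusted p = 0.0339) and with stricter gates (4.32, adjusted p = 0.0420). Foxp3 CD4, gamma delta and NK cells had 0 Il4 UMIs. Most Il4 was in the other CD3 cells, outside the tested classes, with 13 of the 24 carrying cells and 42 of the 62 UMIs. There it stood at 4.55, 0.322 and 5.28 CPM, from 5, 3 and 5 cells. Of the 23 Il4-carrying CD3 or NK cells 0 had Il13 and 4 had Il2, which were in 0.446% and 2.57% of all such cells, so 0 shared cells with Il13 cannot be told from the share in all cells. One other CD3 cell of library 1, with 25 Il4 UMIs, held 40.3% of the 62 UMIs of the gene.

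The type 2 programme was only in part measurable. Of its 12 genes, 7 could be tested between classes, and 4 were higher and 0 lower in conventional CD4 than CD8 T cells. Of all genes 6.99% were called there, and 6.27% in the gamma delta comparison below. Ccr8 and Ccr4, chemokine receptors of type 2 and regulatory T cells, differed by 2.42 ± 0.30 (edgeR, adjusted p = 1.03e-05) and 2.30 ± 0.30 (adjusted p = 3.25e-05), and Il1rl1, the IL-33 receptor, by 1.68 ± 0.50 (adjusted p = 0.0462). In gamma delta T cells, where Il13 was higher, 0 of the 7 were called by edgeR and 0 by DESeq2, with 3 at an unadjusted p under 0.05 and a median log2 difference of -0.75, and Il1rl1 had 1 UMI in 409 cells. Il5, a type 2 cytokine for eosinophils, was in 11 cells and Il9 in 0 of all 13637.

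GATA3, the type 2 regulator that T cells also need more widely, was spread over all T and NK classes. Gata3 stood at 90.4, 24.3 and 70.5 CPM in conventional CD4, 73.2, 29.4 and 40.5 CPM in Foxp3 CD4, 36.1, 20.4 and 13.2 CPM in CD8, 51.9, 23.4 and 6.96 CPM in gamma delta and 16.1, 18.7 and 19.3 CPM in NK cells. It was higher in conventional CD4 than CD8 T cells in 3 of 3 libraries, though the ranges of the 2 classes overlap between libraries. The log2 difference was 0.92 ± 0.23 (edgeR, adjusted p = 0.0146). It did not pass without library 1 (0.77, adjusted p = 0.141) or without library 3 (0.75, adjusted p = 0.0887). No other comparison called it as fitted. In NK cells (-1.14, adjusted p = 0.137) it passed in 2 of 12 alternatives, without library 2 (-1.77, adjusted p = 0.0185) and with no filter on low counts, and in the split by Il21 (-0.87, adjusted p = 0.270) in 2 of 9. Foxp3 and conventional CD4 T cells, next to each other in level, differed by -0.23 ± 0.25 (adjusted p = 0.901).

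Gata3 was seen about as often in cells with Il13 as in all cells, with no allowance for depth. In library 2 the Il13-carrying cells were deeper than their class. Their medians were 9261 against 4516 UMIs in gamma delta and 7547.5 against 3770 in CD8 T cells, so the shares below are not at equal depth. Of the 45 CD3 or NK cells with Il13, 6 had a Gata3 UMI (13.3%), and of the 23 with Il4, 2 did, against 1423 of all 10081. Among cells with Il2 it was 70 of 259. Thinned to 1000 UMIs, Gata3 was in 6.80% ± 2.97 of conventional CD4 and 2.52% ± 1.22 of CD8 T cells (SD, n = 3), and in the unthinned cells 23.6%, 12.7% and 11.6% of conventional CD4 T cells had a UMI. The genes most like Gata3 across the 15 sums were Ccr8 (r = 0.902), Spock2 (0.898), Zan (0.879), Gm8281 (0.874) and Ccr4 (0.871).

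GM-CSF, a growth and activation factor of myeloid cells, was carried by scattered cells of several kinds. Csf2 stood at 6.49, 8.17 and 0 CPM in gamma delta T cells, from 3, 9 and 0 cells, against 0, 3.62 and 0 CPM in conventional CD4 and 0, 0.424 and 0 CPM in CD8 T cells. The gamma delta difference was 3.23 ± 0.90 (log2, edgeR, adjusted p = 0.0398), which passed in 6 of 10 alternatives. It did not pass without library 3 (adjusted p = 0.121), and DESeq2 did not call it (adjusted p = 0.779). Of the 12 carrying gamma delta cells, 9 had Trdv4 and 8 had Trgv6 UMIs. In CD3 or NK cells with Csf2, 8 of 36 had Il17a, which 1.40% of all such cells had, and 1 had Il13. Foxp3 CD4 T cells had 0 Csf2 UMIs in 647 cells.

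Single cells outside the T cell gates held much of the Csf2. One cell of library 1, with no CD3 transcript and in no class, had 58 Csf2, 28 Il13, 2 Il5 and 8 Gata3 UMIs, and 1 of library 2 had 9 Csf2, 7 Il5 and 3 Il13 UMIs. In library 3, 1 cell with 1 Cd3e UMI had 15 Csf2 and 10 Il13 UMIs. The innate lymphoid gate held 10 cells, of which 2 carried Csf2 and 5 Gata3, and 0 carried Il13, Il17a, Il4 or Il2. Of the 3 mast cells or basophils, 2 carried Il13. In conventional CD4 T cells 1 cell of library 2 held 24 of the 27 Csf2 UMIs. It was Il21-positive and Cxcr6-negative, and the called Csf2 differences in the Il21 split (5.09 ± 0.92, edgeR, adjusted p = 0.0188) and the Cxcr6 split (adjusted p = 0.0441, with 0 UMIs in Cxcr6-positive cells) rest on it. The genes most like Csf2 across the 15 sums had at most 42 UMIs each, with Zfp105 first (r = 0.925).

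Other helper cytokines, a list of 12 with 7 tested, had 5 higher and 0 lower in conventional CD4 than CD8 T cells and 0 higher and 4 lower (Ifng, Il21, Lta and Tnf) in Foxp3 than conventional CD4 T cells. In gamma delta T cells 0 were higher and 3 lower, with Il10 at a log2 difference of -3.90 ± 0.52 (edgeR, adjusted p = 2.02e-05). The shares of all genes called in these comparisons were 6.99% (conventional CD4 against CD8), 1.51% (Foxp3) and 6.27% (gamma delta). Of the 6 helper fate factors reported here, Eomes and Tbx21 were higher in gamma delta T cells and Maf, Prdm1 and Tcf7 lower. All 5 were called in the same direction in NK cells. The part of Ncr1-carrying cells of the gamma delta gate in these differences was not tested. In conventional CD4 against CD8 T cells Maf and Tcf7 were higher and Eomes, a factor of cytotoxic cells, lower (-3.54 ± 0.31, adjusted p = 5.77e-08).

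Cells with UMIs of 2 cytokines were counted over all CD3 or NK cells. Of the 259 with Il2, 4 had Il17a (1.54%, against 1.40% of all 10081 cells), 4 had Il4 (1.54% against 0.228%), 2 had Csf2 (0.772% against 0.357%) and 1 had Il13 (0.386% against 0.446%). Cells are not replicates and all CD3 or NK cells mix classes that differ in these genes, so these shares carry no test. Of the 141 with Il17a, 8 had Ifng, the type 1 cytokine that 22.2% of all CD3 or NK cells carried. Transcripts missed at this depth lower such counts, while doublets, which were not removed, and free RNA can add to them, and the part of each was not tested.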

How the data were processed

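Per the labels and the study's methods, CD45+ cells were sorted from sciatic nerves and sequenced with 10x Genomics 5′ chemistry, and the authors mapped the reads to mm10 with Cell Ranger (5.0.1 for library 1, 6.1.2 for libraries 2 and 3, per the submitters' processing notes and file headers). The deposited values are raw UMI counts per gene and cell, not normalized. For library 1 no separate list of genes was used, and its rows took the row order of libraries 2 and 3. Across genes its row totals had a Spearman correlation of 0.950 and 0.929 with theirs, and 0.355 and 0.324 with the order shifted by 1 row.

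Cells were kept from 300 UMIs upwards, at no more than 5000 genes and a mitochondrial share of no more than 20%. No cell was removed as a doublet. Instead, leaving out lymphoid cells with UMIs of B cell or myeloid genes was an alternative. The libraries held 22983991, 55120460 and 3399733 UMIs. Classes came from marker transcripts, B cells by 2 and myeloid cells by 3 markers. Gene names followed RefSeq synonyms where the files differ. UMIs were summed per library and class, with at least 10 cells per sum, and genes with at least 10 UMIs over the sums were tested with edgeR 4.0.16 in R 4.3.3 (quasi-likelihood, TMM, library as a block because classes of 1 library share mice, Benjamini-Hochberg, threshold 0.05). The test was checked on simulated data for conventional CD4 against CD8 T cells only, with the same spread set for all genes. That check does not cover genes whose UMIs sit in few cells, or the splits within a class. Alternatives were DESeq2 1.42.0, other scaling and filters, other gates, no block, and each library left out. The libraries come from separate mice. With library as a block, shifts in level shared by all classes of a library are taken out. The p-values therefore rest on how far the differences between classes vary from library to library. They do not measure the spread in level between mice. Depth per class and library limits each share, for which exact Clopper-Pearson 95% intervals are given. Thinned shares are expected values at 1000 UMIs. CPM in the text are raw summed UMIs scaled to the class total with no further normalization.

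The genes and lists were chosen with earlier results of these data known, and the splits by Il2 and Il17a and the alternative with 1 UMI per cell were added after values were seen. Named were all 9 genes, the genes of 6 lists (1 listed gene is not reported here), V genes of Il17a-carrying cells, and for each of the 9 with at least 50 UMIs the 5 genes most like it. Columns of other samples numbered 0.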

Additional observations from a re-analysis of the deposited data

How the results depend on the processing

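Il2 in conventional CD4 against CD8 T cells (2.93 to 5.29 on the log2 scale), Il2 in Foxp3 CD4 T cells (-4.59 to -2.62) and Il17a in gamma delta T cells (4.51 to 6.58) kept direction and call under all 12 alternatives, and Il13 in gamma delta T cells (3.69 to 5.26) under the 10 that tested it. Classes of 1 library come from the same mice, which is where the pairing comes from. With no replicate block, which ignores that pairing, the counts of called genes fell to 65 (conventional CD4 against CD8), 6 (Foxp3), 233 (gamma delta), 328 (NK), 1 (Cxcr6), 0 (Il21), 1 (Il2) and 127 (Il17a), and calls were lost for Gata3 in conventional CD4 (1.18), Il2 in gamma delta (-3.29) and NK cells (-7.28), Csf2 in gamma delta cells (3.16), Il2 (-1.22), Il17a (7.12) and Csf2 (-5.28) by Cxcr6, Il2 (2.98) and Csf2 (4.90) by Il21, and Il17a by Il2 (1.80). The 0 called by Il21 were edgeR's, against 44 by DESeq2 with the block, and 166 genes had an unadjusted p under 0.05. DESeq2 called 500 genes in conventional CD4 against CD8, 32 by Cxcr6, 44 by Il21, 21 by Il2 and 60 by Il17a, and did not call Csf2 in gamma delta (3.72), Il2 in NK cells (-3.29), or Il2 (-1.34) and Il17a (6.41) by Cxcr6. In NK cells it called 432 genes higher and 391 lower, against 333 and 540 by edgeR, where the median of all genes was -0.20 and -0.04 with DESeq2. In Foxp3 CD4 T cells the split was 96 and 89, against 88 and 122. Fewer or more genes tested gave 40 (Il21), 73 (Il2) and 75 (Il17a) calls with filterByExpr and 520 (Foxp3) and 277 (Il21) with no filter, and lost Il17a by Il2 (1.91) and Csf2 by Cxcr6 (-5.47). RLE size factors gave 231 calls by Il21. Leaving out cells with B cell or myeloid UMIs gave 495 calls in Foxp3 and 261 by Il21, and 160 genes were called by Il17a in cells of 1000 or more UMIs. Stricter gates lost Il2 in gamma delta (-6.55) and NK cells (-6.62) and Csf2 in gamma delta cells (3.61). Counting at most 1 UMI per cell, added after the data were seen, lost Il2 in NK cells (-6.20), by Cxcr6 (-0.53) and by Il21 (0.12), and Il17a by Il2 (1.75). The causes were not tested.

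Leaving out 1 library at a time gave 605 to 841 calls in conventional CD4 against CD8 and 60 to 205 by Cxcr6. Gata3 in conventional CD4 ranged from 0.75 to 1.44, Il2 in gamma delta from -6.99 to -1.98 and in NK cells from -7.88 to -6.90, Csf2 in gamma delta from 2.60 to 3.28, and by Cxcr6 Il2 from -1.38 to -1.25 and Csf2 from -6.28 to -6.01. The splits by Il21, Il2 and Il17a could not be fitted without library 1 or 2, and stricter gates left too few cells for that by Il17a.

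Signs turned only for differences that did not pass. Without cells with B cell or myeloid UMIs these were Il17a (-0.01) and Csf2 (-2.20) in conventional CD4 against CD8, Il13 (-3.05), Il17a (-0.24) and Il17f (-1.81) in Foxp3 and Il17f in gamma delta cells (-0.31). At 1 UMI per cell they were Il13 (-0.22) and Il17a (-0.0) in Foxp3. The DESeq2 value for Il13 in NK cells (0.54) was fitted to a class with 0 Il13 UMIs in all 3 libraries and shows no turned direction. Il2 and Il17a in NK cells and Csf2 in Foxp3 cells were also at 0 UMIs, so their fitted values depend on the prior count and are no sizes. Without library 1 signs turned for Il17f in Foxp3 (leaving out 1 library gave -0.02 to 1.53), Csf2 in NK cells (-4.34 to 2.74), and Il4 (-0.29 to 0.77) and Gata3 (-0.32 to 0.19) by Cxcr6. Calls were gained without library 1 for Il4 (4.46) and Csf2 (2.94) in conventional CD4 against CD8 and Il17a (1.98) and Csf2 (-5.93) in Foxp3, and without library 2 for Gata3 in NK cells (-1.77). They were gained with no filter for Csf2 in conventional CD4 (2.83), Il17a in Foxp3 (1.01), and Gata3 in NK cells (-1.15) and by Il21 (-0.90), with stricter gates for Il4 (4.32), and without cells with B cell or myeloid UMIs for Csf2 in NK cells (4.88) and Gata3 by Il21 (-1.11). Il17a in NK cells passed in 3 of 12 alternatives. Shares of cells with a UMI moved with depth. Il2 in conventional CD4 was 5.07% unthinned and 1.27% at 500 UMIs, Gata3 16.0% and 3.45% there and 9.77% and 1.25% in CD8 T cells, and Il13 in gamma delta cells 3.53% unthinned. Depth limits the rare genes most: in the 28 gamma delta cells of library 3 a count of 0 allows a share of up to 10.7%.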
